A study of Mus musculus with 2 samples.

Results

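The regions described here are the POU5F1 peaks farthest from the starts of protein-coding transcripts. They are the peaks of the authors' whole-series mm9 list whose centre lay more than 100 kb from the nearest start of a protein-coding transcript in GENCODE M1, and 1198 of the 5515 peaks, or 21.7%, met that rule. They are called distal peaks below, and the other 4317 are called nearer peaks. POU5F1 binding was profiled by chromatin immunoprecipitation and sequencing (ChIP-seq) in E14TG2a.4, a male embryonic stem cell line of mouse strain 129/Ola, in 1 group of 2 biological replicates. The labels name no treatment and no edited allele, and they do not say whether the replicates were separate cultures. The control experiment was not analysed here. No expression was measured, so the cell type was not checked against marker genes.

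POU5F1, also called OCT4, is a POU-domain transcription factor that embryonic stem cells need to stay pluripotent. It binds an 8-base octamer, and together with SOX2 it binds a composite element in which a SOX site stands directly before a POU site. Many enhancers of developmental genes lie far from the genes they act on, in introns or in long stretches without genes, and part of the POU5F1 sites known in mouse embryonic stem cells lie in repeated sequence derived from transposable elements.

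The sequences under the distal peaks are shown first, because they carry the POU sites and the repeated families that the counts below refer to. The composite element was searched as the SOX site CATTGT, 1 pyrimidine and the octamer ATGCAAAT, 15 bases in all, with up to 2 mismatches, on both strands, within 100 bp of the peak centre in either direction. The octamer was also searched alone without mismatch, so a composite match with an intact POU site counts under both. In 5 distal windows the composite element had 0 mismatches. They are shown on the strand of the match, mm9, with the 15 bases of the element in capitals and 10 bases on each side.
Intron of Ebf1, chr11:44655374-44655408, plus strand: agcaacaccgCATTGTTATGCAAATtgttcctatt
Intron of Wbscr17, chr5:131653221-131653255, plus strand: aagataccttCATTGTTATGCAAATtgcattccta
Nearest start Trpc7, chr13:57119504-57119538, plus strand: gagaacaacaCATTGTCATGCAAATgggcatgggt
Between Med13l and Tbx3, chr5:119754846-119754880, minus strand: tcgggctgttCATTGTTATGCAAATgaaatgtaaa
Nearest start Tsen15, chr1:154104634-154104668, minus strand: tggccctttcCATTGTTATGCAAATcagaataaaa
The element stood within 50 bp of the peak centre in each. The signal of these 5 peaks, the value the authors deposited for each peak on a scale that is not stated, was 14.4 at Ebf1, 12.3 at Wbscr17, 9.98 at Trpc7, 7.93 at Tbx3 and 4.99 at Tsen15. An exact element therefore stood under distal peaks of both high and low signal. The first 4 overlapped a peak of both replicates, and the Tsen15 peak overlapped a peak of replicate 2 only.

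The next 4 sequences come from the strongest distal peaks that held the element with 2 mismatches, again with the 15 bases in capitals. They show how the element varied where signal was highest.
Between Pcdh17 and Diap3, chr14:86795989-86796023, minus strand: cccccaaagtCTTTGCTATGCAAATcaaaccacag
Intron of Cntnap4, chr8:115219788-115219822, minus strand: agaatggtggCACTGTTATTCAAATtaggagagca
Between Arg1 and Akap7, chr10:24749359-24749393, minus strand: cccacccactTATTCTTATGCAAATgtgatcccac
Between Akr1d1 and Trim24, chr6:37608243-37608277, minus strand: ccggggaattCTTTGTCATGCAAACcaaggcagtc
The octamer was intact in the Pcdh17 to Diap3 and Arg1 to Akap7 peaks, whose mismatches fell in the SOX site. Neither of the other two matches held an intact octamer.

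The 15 distal peaks of highest signal all overlapped a peak in both replicate lists. Signal is given from the whole-series list and then from each replicate's own list; the lists were scaled separately, so levels are read only within a list. The strongest was a site at chr14:86795695-86796358, 697 kb from the start of Diap3, which encodes an actin-nucleating formin, and 1952.7 kb from Pcdh17, a protocadherin of cell adhesion. Its signal was 28.5 in the whole-series list, 25.5 in replicate 1 and 53.7 in replicate 2, and it ranked 3 among all 5515 peaks. It was the only distal peak among the 10 strongest of the list. Among the 100 strongest, 18 were distal.

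The next 2 strongest distal peaks had the same whole-series signal, 23.8. The peak between Unc5cl, a death-domain protein gene, and Lrfn2, a synaptic adhesion gene, lay at chr17:48755530-48756085, with 16.8 in replicate 1 and 42.3 in replicate 2. The peak between Cyp7b1, an oxysterol hydroxylase, and Armc1 lay at chr3:18523806-18524555, with 20.5 in replicate 1 and 35.5 in replicate 2. The replicates thus ordered these peaks in opposite ways. The Cyp7b1 to Armc1 interval held 3 more distal peaks, of which the one at chr3:18728944-18729470, with a signal of 10.4, was found in both replicates and the other two, with 4.99 and 6.46, in replicate 2 only.

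The peak between Gpd2, a mitochondrial glycerol-3-phosphate dehydrogenase, and Galnt5, which starts protein O-glycosylation, had a signal of 20.0, with 14.3 in replicate 1 and 38.6 in replicate 2. In an intron of Wbscr17, a gene of the same glycosyltransferase family as Galnt5, the signal was 18.8, with 11.2 and 32.5 in the replicates. In an intron of Cntnap4, a contactin-associated neural adhesion gene, it was 17.0, with 11.6 and 33.4. Each of the 3 was above the medians of the distal peaks found in both replicates, 7.47 in replicate 1 and 14.4 in replicate 2. The remaining 9 lay between 14.4 and 16.5. They were the peaks between Arg1, arginase of the urea cycle, and Akap7 (16.5), between Tbc1d2b and Zic4, a zinc finger factor of neural development (16.2), and between Cdk15 and Fzd7, a Wnt receptor (15.9). Next came those between Akr1d1, a steroid reductase of bile acid synthesis, and Trim24, a chromatin reader (15.6), between P2ry1, a purine receptor, and Rap2b, a small GTPase (15.6), and between Ythdf3, a reader of methylated RNA, and the predicted gene Gm10742 (15.3). The last were those between Celf2, an RNA-binding protein gene, and Gata3 (14.7), between Tox3 and the chromatin remodeller gene Chd9 (14.7), and in an intron of Ebf1, a transcription factor of B cell and neural development (14.4).

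**Figure D1:**
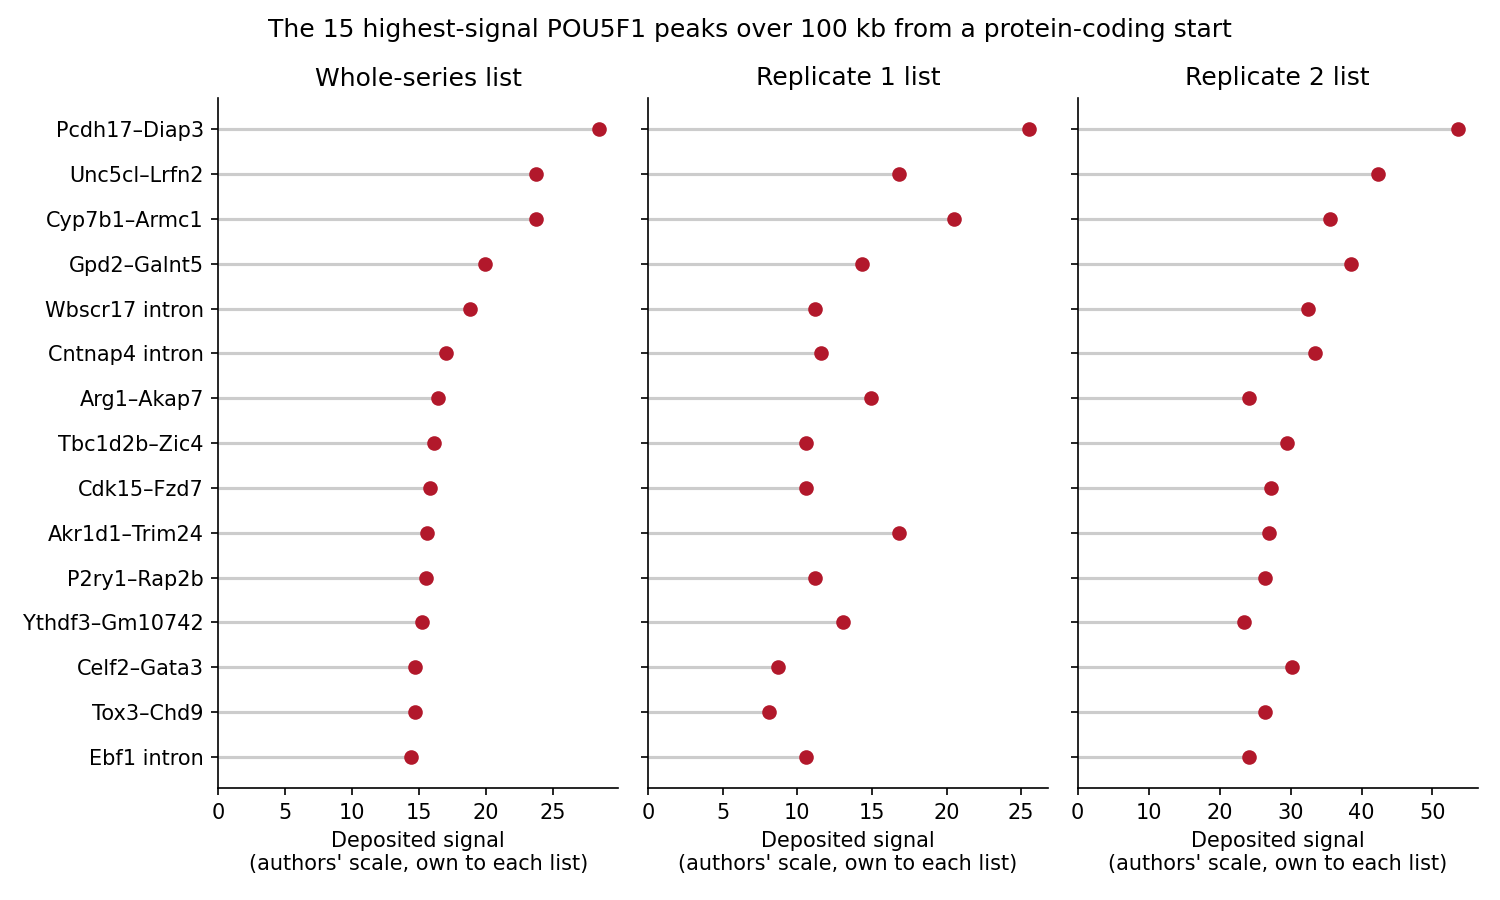
Deposited signal of the 15 highest-signal distal peaks, 1 row per peak named by its flanking or host genes, in the whole-series list and in the list of each replicate; each panel has its own scale and the points are single deposited values without error. The Pcdh17 to Diap3 peak was the highest in all 3 lists, while the peaks at Celf2 to Gata3 and Tox3 to Chd9 were the lowest of the 15 in replicate 1, with 8.71 and 8.09, and not in replicate 2, with 30.2 and 26.5.

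Of these 15 peaks, 5 held the composite element in the window and 4 the octamer, and 3 lay in introns. On mm10 the authors deposited a separate optimal list of 3994 peaks made by an irreproducible discovery rate (IDR) procedure, which scores how well lists of peaks agree. Coordinates were not converted between builds. Of the 15 intervals, 14 could be found by their flanking gene symbols in RefSeq genes on the mm10 assembly, and each of the 14 held at least 1 optimal peak. An optimal peak anywhere between the flanks was counted, so the named peaks themselves were not matched. On mm9 the 15 intervals ran from 225 to 2798 kb. The share of all intervals that hold an optimal peak was not counted. In the Pcdh17 to Diap3 interval the best optimal peak ranked 5. These lists come from the same libraries.

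Over all 1198 distal peaks, whole-series signal had a median of 5.58 and ran from 3.22 to 28.5. The median over the nearer peaks was also 5.58. Widths were alike too, with medians of 362 bp for distal and 369 bp for nearer peaks. The median distance to a protein-coding start was 204 kb. By distance, 585 peaks lay between 100 and 200 kb from a start, 420 between 200 and 500 kb, 150 between 500 and 1000 kb and 43 beyond 1000 kb, with median signals of 5.58, 5.58, 5.29 and 6.17. At the threshold, the 3 peaks just inside, at 100.2, 100.4 and 100.6 kb, had signals of 6.17, 3.72 and 7.64, and the 3 just outside, at 99.4, 99.6 and 99.8 kb, had 5.13, 7.05 and 5.58.

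Replicate support was counted as an overlap of at least 1 bp with a peak of the replicate's list. Both replicates supported 247 distal peaks, which is 20.6% (18.4 to 23.0%, 95% Clopper-Pearson interval, here and below covering counting error only), beside 21.9% of all 5515 peaks. The list of replicate 1, with 1330 peaks, overlapped 254 distal peaks or 21.2%, beside 22.7% of all peaks. The list of replicate 2, with 6324 peaks, overlapped 87.7%, so most distal peaks, 804, were found in replicate 2 only and 7 in replicate 1 only. Neither list overlapped 140 distal peaks or 11.7% (9.92 to 13.6%), beside 12.5% of all peaks. These shares lay close to those of all peaks. Within the replicates' own lists, distal peaks made up 20.8% (18.6 to 23.0%) of replicate 1 and 22.8% (21.7 to 23.8%) of replicate 2.

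Support followed signal. Distal peaks found in both replicates had a median signal of 8.81, those in replicate 2 only 5.29, the 7 in replicate 1 only 4.99 and those in neither 4.41. When the whole list was cut into 5 equal parts by signal, replicate 1 supported 0.452% of distal peaks in the lowest part and 75% in the highest, beside 1.7% and 77.2% of nearer peaks. Over the 247 distal peaks found in both, the signals of the 2 replicates had a Spearman's rho of 0.519 and a Pearson's r of 0.615 on the log2 scale. Over the 962 such nearer peaks they had 0.623 and 0.735. These correlations are across peaks that share the same 2 libraries and had passed the authors' calling in both, and they are given as a description.

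**Figure D2:**
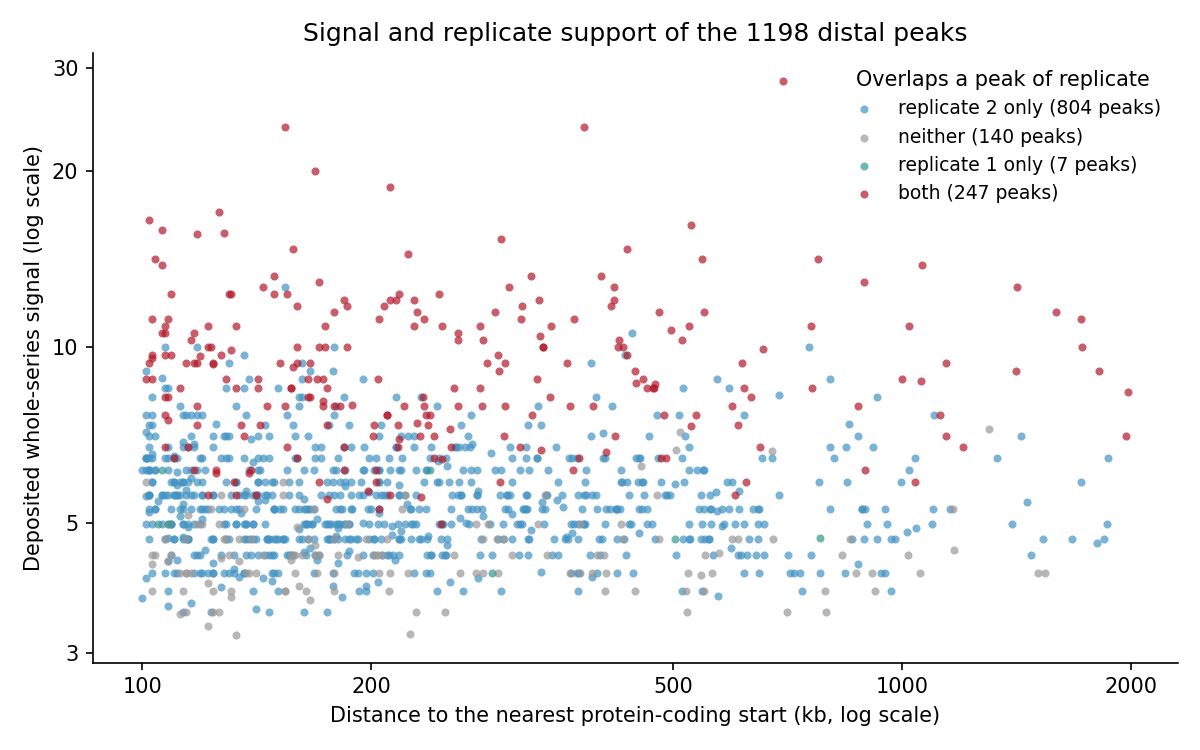
Whole-series signal of each distal peak against its distance to the nearest protein-coding start, both on log scales, coloured by the replicate lists that hold an overlapping peak. Peaks found in both replicates fill the upper part at all distances, from 100 kb to 1984.6 kb.

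The 5 peaks farthest from a start lay in very long stretches without protein-coding starts. The farthest, at chr1:103653608-103654187, was 1984.6 kb from Cntnap5b, a contactin-associated neural gene, in an interval of 4995.8 kb that ends at the cadherin gene Cdh20. Its signal was 8.36, with 6.29 in replicate 1 and 14.3 in replicate 2. The second, between Celf4, an RNA-binding protein gene, and Pik3c3, a lipid kinase gene, had 7.05 and was also found in both replicates. Of the others, 2 peaks between the protocadherin gene Pcdh7 and G6pd2, with 6.46 and 4.99, and 1 between Hace1 and Grik2, with 4.70, were found in replicate 2 only. Among the 43 peaks beyond 1000 kb, 16 were found in both replicates (37.2%, 23.0 to 53.3%), and among the 150 between 500 and 1000 kb 24 were (16%, 10.5 to 22.9%). The share did not run in 1 direction with distance.

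Sequence more than 100 kb from a protein-coding start made up 37.7% of the assembled bases of the chromosomes with peaks. It held 1.24 peaks per Mb, beside 2.71 per Mb in the remaining sequence. Distal peaks were most dense on chromosome 13, with 2.04 per Mb, and chromosome 9, with 2.01, and least dense on chromosome 14, with 0.843, and the X chromosome, with 0.234. The X chromosome also had the lowest density of nearer peaks, 0.726 per Mb.

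The distal peaks fell in 737 intervals between neighbouring protein-coding starts, with a median interval length of 654 kb. A single distal peak was held by 458 intervals, and 16 intervals held at least 5, 93 peaks in all. Another distal peak lay within 25 kb of 208 peaks, or 17.4%. The most were in the interval between Gm4868 and Tmem132c on chromosome 5, with 8 peaks of signal up to 7.64, of which 2 were found in both replicates. There were 3 intervals with 7 peaks each. One lay between Chrm3, a muscarinic acetylcholine receptor gene, and Ryr2, a calcium release channel gene, with signals up to 12.04. One lay between Tbl1xr1, a corepressor subunit gene, and Gm7536, with signals up to 7.93. The third lay between the cadherin genes Cdh6 and Cdh9, where no peak was above 6.46 and none was found in both replicates.

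Among the 4 intervals with 6 peaks, between 0 and 4 of the 6 were found in both replicates. Between Lrrn3, a leucine-rich repeat neural gene, and Dnajb9, a chaperone gene of the endoplasmic reticulum, 4 of 6 peaks were found in both replicates. They stood as close pairs, with signals of 9.40 and 8.52 at chr12:42828197-42828717 and chr12:42830699-42831233, and of 9.10 and 12.6 at chr12:43625806-43626273 and chr12:43626959-43627363. Between Nr2f1, an orphan nuclear receptor gene of neural development, and Arrdc3, 1 of 6 was, the peak at chr13:78566896-78567464 with a signal of 10.9, which held both the composite element and the octamer. Between Pmp22, a myelin protein gene, and Hs3st3b1, a heparan sulfate sulfotransferase gene, none of 6 was, and none of 6 was between Gm17624 and Vstm2a.

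The genes on both sides of the distal peaks were then counted by list. A gene was said to flank a distal peak when it had the nearest protein-coding start to its left or right. Of 22238 protein-coding symbols, 1312 flanked a distal peak, or 5.9%. Only a gene beside an interval of more than 200 kb can do so, or beside a chromosome end, and 3942 genes stood there, of which 33.3% flanked a distal peak. The lists were chosen with earlier results of these data known, and their counts are given without a test.

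Among 47 pluripotency regulators, 8 flanked a distal peak (17.0%, 7.65 to 30.8%), which is 40% of the 20 beside a long interval. The largest number of peaks was at Sox2, the partner of POU5F1 at composite elements, where the interval to Atp11b held 5 distal peaks and 2 were found in both replicates. The peak closest to Sox2, at chr3:34656822-34657238, lay 108 kb downstream of its start and had a signal of 11.2, with 6.84 in replicate 1 and 21.2 in replicate 2. A cluster of enhancers known as the Sox2 control region lies far downstream of Sox2 in embryonic stem cells; whether this peak falls in it was not tested. The peaks at 179 and 300 kb had 9.98 and 5.29, were found in replicate 2 only and each held an octamer. The other two stood next to each other, at chr3:35316196-35316562 and chr3:35317265-35317699, with 9.98 and 5.44.

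Trim24 had 3 distal peaks in its interval with Akr1d1, and all 3 were found in both replicates. Their signals were 15.6, 9.98 and 9.69. Nr5a2, an orphan nuclear receptor that can take the place of POU5F1 in reprogramming, flanked 2 distal peaks. The stronger, at 418 kb, chr1:139275095-139275573, had 12.6 in the whole-series list, 10.6 in replicate 1 and 20.4 in replicate 2, and it held a composite element. The closer, at 172 kb, chr1:138678433-138678657 between Zfp281 and Nr5a2, had 4.41 and was in neither replicate list. The strongest peak in the interval of Klf5, a Krüppel-like factor of the naive state, had 11.2 and was found in both replicates, but it lay 646 kb from Klf5 and 205 kb from Klf12, in an intron of the latter. Fbxo15, a gene used to report the pluripotent state, had its strongest peak at 546 kb, with a signal of 14.1, found in both replicates. Jarid2, a subunit of polycomb repressive complex 2, had its strongest at 711 kb with 8.22. Tbx3, a T-box factor of naive cells, had the exact composite element shown above at 366 kb. Tcfcp2l1, a further naive factor, had 1 peak of 4.41 at 149 kb, found in replicate 2 only. The 22 distal peaks beside these 8 genes had signals from 4.11 to 15.6, on both sides of the median of 5.58 for all distal peaks.

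Of 130 developmental transcription factor genes in the annotation, 57 flanked a distal peak (43.8%, 35.2 to 52.8%), or 57.6% of the 99 beside a long interval. The strongest peaks were those already named at Zic4, Gata3 and Ebf1. At Eya4, a transcriptional cofactor gene, the strongest had 12.6 and was found in replicate 2 only, and at Nr2f1 it had 10.9. Of 90 neural adhesion and synaptic organiser genes, 57 flanked a distal peak (63.3%, 52.5 to 73.2%), or 67.1% of the 85 beside a long interval. After Cntnap4 the strongest were at the cell adhesion gene Dscam, in an intron, with 13.2, at Lrrn3 with 12.6, and at the catenin gene Ctnnd2 and the receptor gene Lrp1b, each with 11.8. Each of these 4 was found in both replicates.

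The cadherin superfamily had 19 of 35 genes (54.3%, 36.6 to 71.2%) and 73.1% of the 26 beside a long interval, led by Pcdh17 and followed by Cdh18 with 12.04, Pcdh7 with 11.5, Cdh2 with 10.9 and Cdh8 with 9.69. Ion channel and neurotransmitter receptor genes had 26 of 69 (37.7%, 26.3 to 50.2%) and 42.6% of 61. The glutamate receptor gene Grik2 led with 13.8, and the peak between Chrm3 and Ryr2 and that at Grm7 each had 12.04. At Galr1, a galanin receptor gene, the strongest had 10.3. Signalling ligands and receptors had 10 of 59 (16.9%, 8.44 to 29.0%) and 27.8% of 36, where all genes beside a long interval had 33.3%. No confidence interval was computed for the shares of genes beside a long interval. Their strongest peaks were at Inhbb, an activin subunit gene, with 14.1 and at Dll1, a Notch ligand gene, with 12.3, then Inhba with 9.98, Tgfb2 with 9.36 and Bmp7 with 7.34.

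For contrast, cytosolic ribosomal protein genes, which the annotation lists together with processed copies such as Rpl17-ps3, flanked a distal peak in 9 of 146 cases (6.16%, 2.86 to 11.4%), or 29.0% of 31. Their strongest peaks had 8.52 at Rpl10l, 7.93 at Rps29, Rpl17-ps3 and Rpl10-ps3, and 7.50 at Rpl36-ps3. Olfactory and vomeronasal receptor genes did so in 6 of 1440 (0.417%, 0.153 to 0.905%), or 15.4% of 39. Theirs had 8.81 at Vmn1r3, 7.64 at Olfr1370, 6.43 at Olfr161, 6.17 at Vmn2r79 and 4.70 at Olfr721-ps1. Interval length differed between the lists. The median length of the longest interval beside an eligible gene was 1985.7 kb for cadherins, 1210.2 kb for neural adhesion genes, 786 kb for channels and receptors, 628 kb for developmental factors, 546 kb for ribosomal protein genes, 475 kb for signalling genes, 376 kb for pluripotency regulators and 250 kb for olfactory and vomeronasal receptors, beside 396 kb for all such genes. Cadherin genes had both the greatest length and the highest share beside a long interval, followed on both by neural adhesion genes. Olfactory and vomeronasal receptors had the lowest of both. Among the other lists the 2 orders differed in part. The part of interval length in the shares was not tested.

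**Figure D3:**
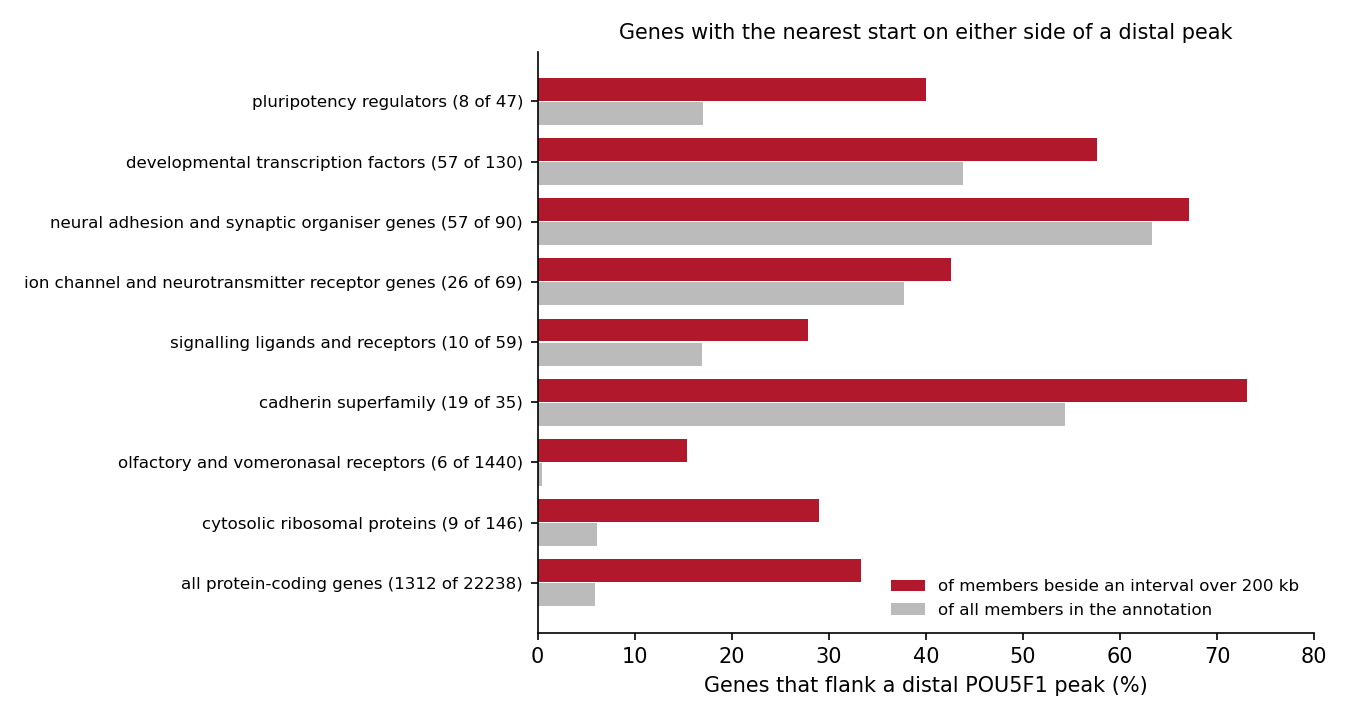
Share of each gene list that flanks a distal peak, as a percentage of all its members in the annotation (grey) and of the members beside an interval over 200 kb or a chromosome end (red), with the counts over all members in the row names. Cadherin, neural adhesion and developmental factor genes had the highest red bars, at 73.1%, 67.1% and 57.6%, and olfactory and vomeronasal receptors the lowest, at 15.4%.

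By position, 941 distal peaks (78.5%, 76.1 to 80.8%) lay outside protein-coding transcripts, 254 (21.2%, 18.9 to 23.6%) in an intron and 3 in an exon. Of all peaks 36.2% lay in an intron. The intronic distal peaks were spread over 182 host genes, and 115 of them lay in introns longer than 100 kb. The median length of the intron was 90.1 kb. For 170 of the 254 the host gene was also the gene with the nearest start. Ryr2, the catenin gene Ctnnd2, the cadherin genes Cdh4 and Cdh13, and Vti1a held 4 peaks each. Their strongest peaks ran from 5.87 at Vti1a to 12.04 at Ryr2.

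The strongest intronic peaks after those at Wbscr17, Cntnap4 and Ebf1 were at Dscam and at Ephb1, an ephrin receptor gene, each with a signal of 13.2. The peak at Eya4 followed with 12.6. Ebf1 and Wbscr17 each held a further peak of 12.3, at chr11:44677378-44677928 and chr5:131652946-131653539, both found in both replicates. The second carries the exact composite element shown above, and the first one with 1 mismatch. The longest introns that held a distal peak were annotated at Gm20388, with 4384.4 kb, and at Arfip1, with 1244.6 kb. The peaks in them had other genes as flanks, Fam92b and Gse1 for the first and Fbxw7 and Pet112l for the second, so these introns run across other genes in the annotation. After these came Accn1, a proton-gated channel gene, with 996 kb and a peak of 10.9, the synaptic gene Lrrtm4 with 786 kb and 4.70, and Hs6st3, a heparan sulfate sulfotransferase gene, with 730 kb and 5.87.

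Few distal peaks lay at annotated non-coding transcripts. A start of a long non-coding transcript stood within 10 kb of 23 distal peaks (1.92%, 1.22 to 2.87%), beside 6.27% of all peaks, and 42 lay inside one (3.51%, 2.54 to 4.71%), beside 4.21% of all peaks. The median distance to such a start was 539 kb for distal and 172 kb for nearer peaks. How often long non-coding transcripts begin near protein-coding starts, which the rule removes, was not tested. The 23 peaks stood near 21 long non-coding genes, and 8 were within 1 kb. Counting every annotated start, 652 of the 1198 were still more than 100 kb from any.

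The strongest peak near a long non-coding start lay 4.66 kb from 9330185C12Rik, 1725.3 kb from the closest protein-coding start, Cntnap5a, at chr1:115855838-115856270. It had a signal of 9.98, with 6.84 in replicate 1 and 16.6 in replicate 2. A second peak, of 5.87, stood 0.454 kb from the same start and was found in replicate 2 only. The peak near 2210417A02Rik had 7.93, with 9.90 in replicate 1 and 10.6 in replicate 2, and that near Gm13465, in the interval of the transcription factor gene Zeb2, had 7.64, was found in replicate 2 only and held the composite element and the octamer. The others of the 10 strongest were near C130071C03Rik with 7.64, 1700057H15Rik and E130006D01Rik with 6.46 each, B230209K01Rik with 6.17, Gm3848 with 5.97 and Gm16950 with 5.87. Over all 23 peaks, including those not named, the median signal was 5.72 for the 18 near a lincRNA start, 5.48 for the 2 near an antisense start and 4.41 for the 3 near a processed transcript, beside 5.58 for all distal peaks.

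C130071C03Rik held 3 distal peaks, the most of any long non-coding gene. It spans Mir9-2, which encodes miR-9, a microRNA of neural progenitors, between Mef2c and Tmem161b on chromosome 13. The peak at chr13:83873882-83874212, with a signal of 7.64, 5.6 in replicate 1 and 12.1 in replicate 2, was found in both replicates and held an octamer. The peak at chr13:83877852-83878220, with 4.41, stood 375 bp from the annotated Mir9-2 start and was found in replicate 2 only. The third, with 4.11, was in neither list. In all, 9 distal peaks (0.751%, 0.344 to 1.42%) had an annotated miRNA start within 10 kb, beside 1.32% of all peaks, and 3 of the 9 were at Mir9-2. Other peaks inside long non-coding genes were named after their values were seen. The strongest was the Celf2 to Gata3 peak named above, with 14.7, inside Gm13219. Next was a peak of 11.8 inside Ttc28, annotated as a long non-coding gene. Each was found in both replicates. Single peaks of 5.58 each lay inside Rmst, a long non-coding RNA of neurogenesis, and Pvt1, the long non-coding gene next to Myc.

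The composite element was present in 141 distal windows (11.8%, 10 to 13.7%), beside 9.3% of all peaks and 8.62% (7.8 to 9.49%) of nearer peaks. In windows shifted by 2 kb from the distal peaks it was present in 0 of 1198, which, at 3 counts of the total, allows a share of up to 0.25%. With 0, 1 and 2 mismatches there were 5, 36 and 100 windows. The octamer was present in 186 (15.5%, 13.5 to 17.7%), beside 13.4% of all peaks and 1.67% of the shifted distal windows. The share with the composite element was 19.4% (14.7 to 24.9%) among distal peaks found in both replicates, 10.6% (8.53 to 12.9%) among those in replicate 2 only and 5.71% (2.5 to 10.9%) among those in neither. It therefore moved with support, as signal did.

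At like signal the distal share was above the nearer share in each of the 5 parts of the list. It was 6.79% beside 6.01% in the lowest, then 10.3% beside 6.5%, 9.49% beside 7.65% and 12% beside 9.09%, and 19.8% beside 13.9% in the highest. Each part held 221 to 253 distal peaks, and no confidence interval was computed for the shares by part. GC content moved with distance as well, with a median of 44.1% for distal and 46.6% for nearer peaks, and its part in these shares was not tested. Other motifs were scarce. MORE, the palindrome ATGCATATGCAT bound by a POU dimer, was searched with up to 1 mismatch and was in 23 distal windows (1.92%), beside 2.38% of all peaks. The site TCAAGGTCA of the orphan receptor ESRRB was in 18 (1.5%), beside 1.4% of all, the KLF site GGGTGTGG in 22 (1.84%), beside 2.43%, and the CTCF pattern CCANNAGNNGGC in 5 (0.417%), beside 1.21%. In the shifted distal windows MORE was in 1 (0.0835%), and the last 3 motifs were in 0.417%, 1.5% and 1.09%.

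A part of the distal peaks shared their sequence with other peaks. Peaks were compared with each other by BLAST, and 324 distal peaks (27.0%, 24.5 to 29.7%) aligned to another peak over at least 150 bases at 85% identity or more, beside 18.9% of all peaks and 16.6% (15.5 to 17.8%) of nearer peaks. The share was 4.8% to 1 kb from a start, 14% between 1 and 10 kb, 19.5% between 10 and 100 kb, 20.2% between 100 and 200 kb, 29.5% between 200 and 500 kb, 42.0% between 500 and 1000 kb and 44.2% beyond 1000 kb. It thus rose at each step away from a start. It was 9.84% (6.47 to 14.2%) among distal peaks in introns and 31.8% (28.8 to 34.9%) among those outside genes. None of the 15 strongest distal peaks shared sequence with another peak. These thresholds were chosen after the data had been seen.

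**Figure D4:**
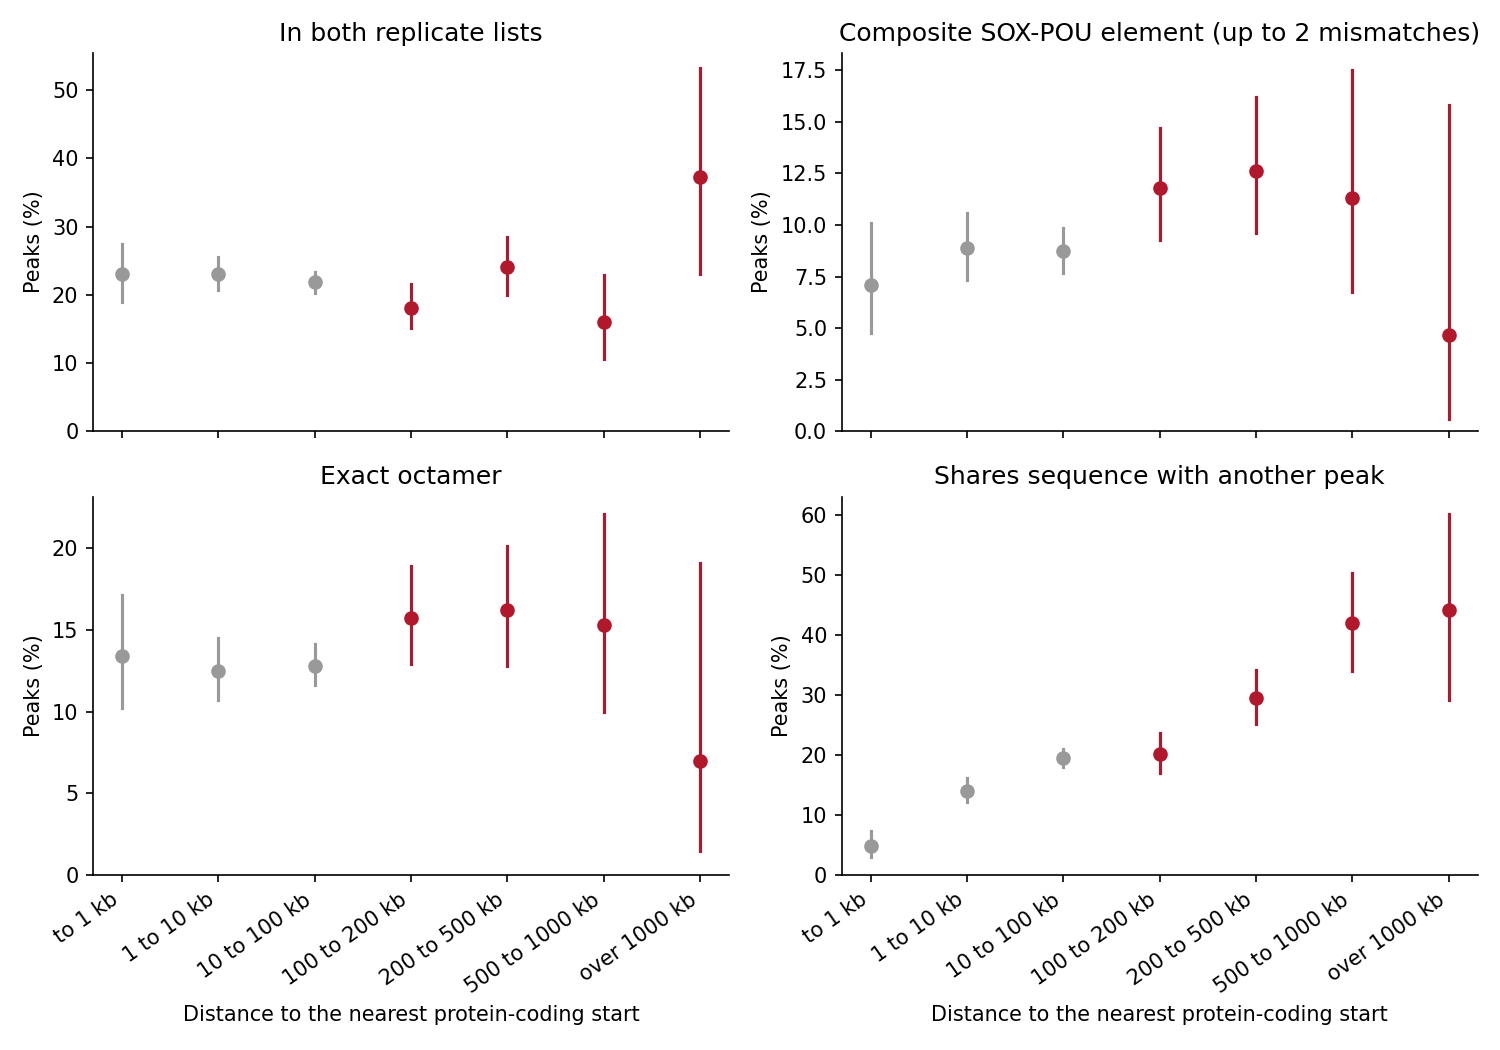
Share of peaks with 4 features in 7 classes of distance to the nearest protein-coding start, nearer peaks in grey and distal peaks in red; points are percentages of the peaks of a class and lines are 95% Clopper-Pearson intervals for counting error. The share with sequence common to another peak ran from 4.8% to 44.2% across the classes, while the class beyond 1000 kb, with 43 peaks, had wide intervals in all panels.

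Peaks with shared sequence differed from the others in their motifs. The composite element was in 2 of the 324 distal peaks with shared sequence (0.617%, 0.0748 to 2.21%) and in 139 of the other 874 (15.9%, 13.5 to 18.5%). Among nearer peaks it was in 1.12% and 10.1% (9.15 to 11.1%). The octamer was in 8.33% (5.56 to 11.9%) of distal peaks with shared sequence and 18.2% (15.7 to 20.9%) of other distal peaks. Among nearer peaks the octamer was in 6.97% and 13.9%. Support by both replicates was 17.3% (13.3 to 21.8%) for distal peaks with shared sequence and 21.9% (19.2 to 24.7%) for those without, and median signals were 5.29 and 5.58.

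Linking peaks by these alignments gave 78 families, of which 8 held at least 8 distal peaks and together 276 distal peaks. They are lettered by their number of distal peaks, and no repeat annotation was used, so they carry no names. The most linked peak of 5 of them is shown, mm9, with 40 bases on each side of the stretch in capitals. The capitals mark the 15 bases closest to the sequence that was most often the best match to the composite element in that family.
Family A, nearest start Tmem68, chr4:3328922-3329016, plus strand: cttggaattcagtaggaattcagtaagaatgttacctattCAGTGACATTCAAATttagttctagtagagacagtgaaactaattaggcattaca
Family B, nearest start Sp4, chr12:119593138-119593232, plus strand: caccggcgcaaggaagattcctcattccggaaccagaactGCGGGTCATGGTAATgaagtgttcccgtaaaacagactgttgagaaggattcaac
Family C, nearest start Znhit6, chr3:145106353-145106447, plus strand: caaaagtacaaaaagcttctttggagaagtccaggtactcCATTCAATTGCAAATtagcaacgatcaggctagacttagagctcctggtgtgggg
Family D, nearest start Gm10058, chrX:27140001-27140095, plus strand: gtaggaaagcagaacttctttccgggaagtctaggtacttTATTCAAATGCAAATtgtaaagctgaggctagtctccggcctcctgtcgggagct
Family E, nearest start Robo2, chr16:74888136-74888230, plus strand: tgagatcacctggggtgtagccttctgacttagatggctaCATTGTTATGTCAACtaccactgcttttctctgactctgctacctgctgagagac
The family B peak shown lies 53.3 kb from a start and so is not distal. The others shown are distal.

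Family A was the largest, with 281 peaks on 20 chromosomes, of which 106 were distal. Of the 106, 16 were found in both replicates and 76 in replicate 2 only, and signal ran from 3.52 to 14.1 with a median of 5.53. Over whole peaks, 1 of the 281 came within 2 mismatches of the composite element and 97 within 4, beside 9.99% and 63.6% of all 5515 peaks, so the element was scarcer there than in the list as a whole. Its strongest distal members included the peak in the Fbxo15 to Neto1 interval named above, with 14.1, a peak in an intron of the cadherin gene Cdh18, with 12.04, and 2 peaks between Gm5444 and Klf6, with 11.8 and 10.9. Family B had 159 peaks, 68 of them distal, with a median distal signal of 4.70. None of its 159 peaks came within 4 mismatches of the composite element or held an octamer, and 56 of them (35.2%) were in neither replicate list, beside 12.5% of all peaks. Of its 68 distal peaks, 15 (22.1%) were in neither and 6 were found in both replicates. The strongest, at chr1:115578462-115578764 between Dsel and Cntnap5a, had 9.09.

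Family C had 114 peaks, 43 of them distal and 12 of these found in both replicates. Its common stretch, as in the peak shown, had 4 mismatches to the composite element, and 73 of 114 peaks held it with at most 1 difference. The strongest distal member, with 12.3, lay between Trpc6 and Pgr, the progesterone receptor gene, and the 9330185C12Rik peak named above was another. Family D had 41 peaks, 18 of them distal, and 37 of the 41 held an exact octamer somewhere in the peak. The common stretch in capitals above, which ends in the octamer, stood without difference in 31 of the 41 and with at most 1 difference in 39. Of its 18 distal peaks 4 were found in both replicates and 14 in replicate 2 only. One of the adjacent peaks between Sox2 and Atp11b belonged to family D and the other to family G. In all, 10 of the 41 family D peaks had a peak of family G, which had 15, within 2 kb. Family E had 23 peaks, 13 of them distal with a median signal of 6.97, the highest median of the 8 families, led by a peak of 12.04 between Edem1 and Grm7. Families F, G and H had 12, 8 and 8 distal peaks, with medians of 4.70, 5.37 and 5.56.

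The family's representative was its most linked peak outside chromosome 18. Copies of each representative were counted in the mm9 sequence at the same thresholds of length and identity, joining matches within 500 bp. They did not cover every family alike. Copies that held a peak numbered 99 for family A, which had 281 peaks, 57 for family C, which had 114, and 6 for family H, which had 13. For families B and D they numbered 152 and 40, beside 159 and 41 peaks. The family A representative had 529 copies, of which 212 or 40.1% lay more than 100 kb from a protein-coding start. Of these, 19.8% held a peak of the list, beside 18% of the nearer copies. Family B had 1813 copies, 47.1% of them distal, and 7.73% of the distal and 8.97% of the nearer copies held a peak. For family C, with 177 copies, it was 26.8% and 36.8%, and for family D, with 282, 17.3% and 12.4%. Family E, with 165 copies, had 18.8% and 6.93%, which are 12 of 64 and 7 of 101 copies. The distal share of the copies ranged from 33.7% to 47.1% over the 8 families, beside 37.7% of all assembled bases. Reads from near-identical copies can be placed at more than 1 site, and the authors' handling of such reads is not given in the labels or file headers, so the part of this in the families' peaks was not tested.

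**Figure D5:**
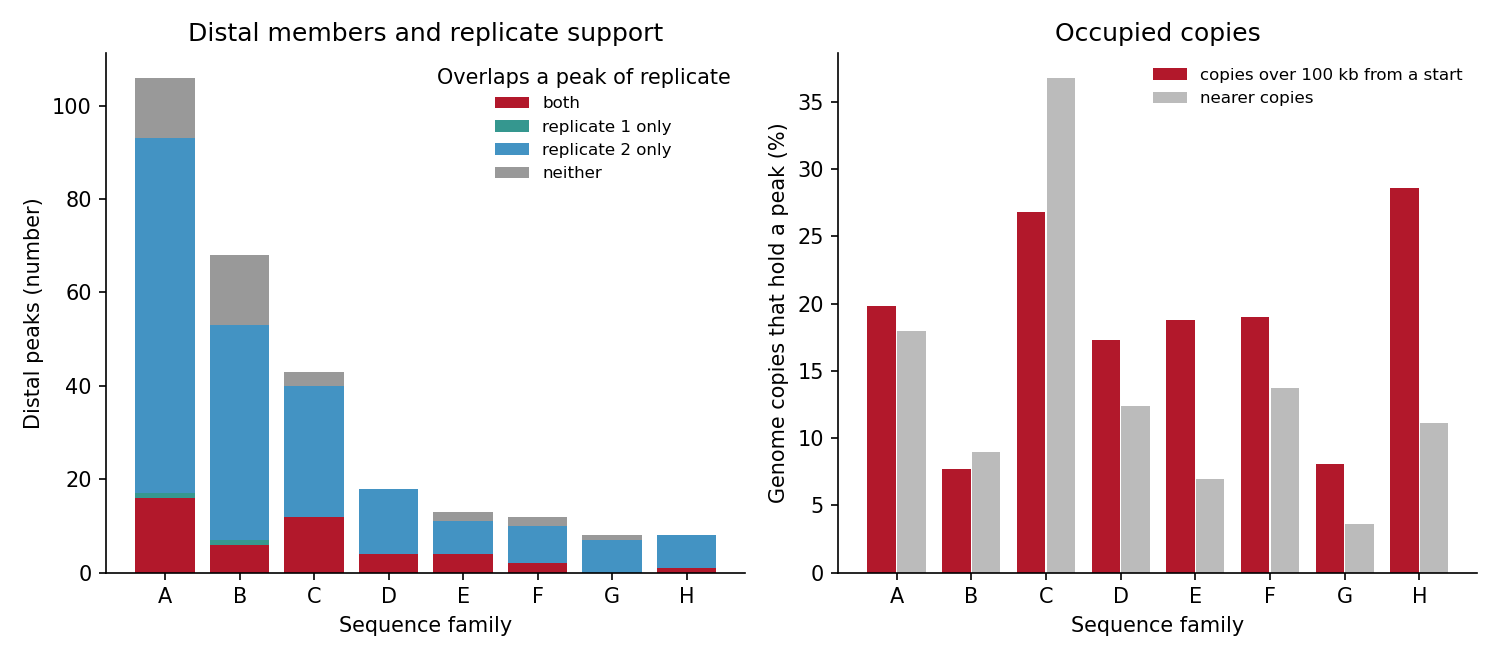
Left, number of distal peaks in each of the 8 sequence families, coloured by the replicate lists that hold an overlapping peak. Right, percentage of copies of each family's representative that hold a peak, over 100 kb from a protein-coding start (red) and nearer (grey). Families A and B had 106 and 68 distal peaks, mostly found in replicate 2 only, and no family had all of its copies occupied; family H rests on 32 copies.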

How the data were processed

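Per the file headers, the mm9 lists are broad peak lists for replicate 1, replicate 2 and the whole series, and the mm10 optimal list passed the IDR procedure. The aligner, the peak caller and how replicates were combined are not given in the sources used here. The signal per peak was deposited by the authors with no stated scaling. The deposited mm9 lists also give a −log10 p-value, used only as a filter, and a q-value, not used. No read counts were used, so depth is unknown.

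The genome was NCBIM37 (mm9) with GENCODE M1, and gene symbols on mm10 came from RefSeq. Distance was taken from the peak centre to the nearest start of a transcript whose own type is protein coding. Coordinates are 1-based. Python 3.11.15 with pandas 2.3.3, scipy 1.17.1 and pysam 0.24.0 was used. Peaks were aligned with each other by BLAST+ 2.17.0 (blastn, expect value at most 1e-05, low-complexity masking on). The search for genome copies used blastn with a stricter expect value limit and masking off. Families were built by single linkage with networkx 3.6.1. The routines for distance, overlap and motifs were tested on simulated data.

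The series has 1 group, so no comparison between samples exists, and peaks are not replicates. No test was run. Named were the genes flanking the 15 strongest and the 5 farthest distal peaks, the hosts of the 8 strongest intronic peaks and of the 5 longest introns, up to 5 members per gene list, the 8 intervals with most peaks, the long non-coding genes nearest the 10 strongest distal peaks with such a start within 10 kb and every pluripotency regulator that flanked a distal peak. The members and lists were chosen with earlier results of these data known, and the sequence families were added after the data had been seen.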

Additional observations from a re-analysis of the deposited data

How the results depend on the processing

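The number of distal peaks was 1922 at 50 kb and 613 at 200 kb, 652 when starts of all annotated transcripts were used, 644 with only peaks of −log10 p of at least 10, and from 276 to 1440 when 1 replicate's list took the place of the whole-series list. The share in both replicate lists was 14.9% with a reciprocal overlap of 50% and 37.1% with the −log10 p filter. Median signal was 6.75 with that filter, and 5.68 to 8.81 over the peaks that overlapped a single replicate's list. The composite share was 3.42% with up to 1 mismatch, 31.1% with up to 3, 9.6% in a window of 50 bp on each side and 15.8% with the filter, and the octamer share was 12.2% in the smaller window. The share near a long non-coding start was 1.17% within 5 kb and 7.35% within 50 kb. The intronic share was 24.4% with introns of any transcript, 26.1% at 50 kb and 12.6% at 200 kb. The share with common sequence, whose alternatives were added after the data had been seen, was 32.5% for 100 bases at 80% identity, 22.0% for 150 bases at 90% and 20.8% with the filter. It stayed above that of nearer peaks at each pair of length and identity, and the smallest distance was 32.5% beside 26.0%. The causes of these shifts were not tested; a lower threshold, a looser match or a larger window takes in more peaks by construction. Measured from gene bodies in place of starts, 769 of the 5515 mm9 peaks (13.9%) and 509 of the 3994 optimal mm10 peaks (12.7%) lay more than 100 kb away. No paired analysis was possible because the series has 1 group and no test. The lists carry 1 value per peak, so no replicate error can be given for the whole-series signal, and replicate 1, with far fewer peaks, limits what support by both replicates can show.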
